A study of Mus musculus with 4 samples.

Results

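Inflammatory chemokines of the CXC, CC and CX3C families, which attract neutrophils, monocytes and other leukocytes, were followed in adult mouse mesoangioblasts (AdmMABs) with and without a knockdown of PW1. The set held 10 genes of the 19938 covered by the array: Cxcl1, Cxcl2, Cxcl5, Ccl2, Ccl7, Ccl5, Ccl8, Ccl11, Ccl20 and Cx3cl1. A gene was taken where the array's annotation gave its symbol, alone, to a probe set, and each of the 10 had 1 such probe set. The genes had been picked with their values on these arrays already known, so their levels, fold changes and number of calls are given below as a description, with no p-value and with nothing read from the calls.

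Both groups were polyclonal AdmMABs, progenitors associated with vessels, from the tibialis anterior muscle of adult male C57/BL6 mice, growing in medium with 20% fetal bovine serum. The first group carried a lentiviral short hairpin RNA against PW1 (shPW1) and the second a lentiviral control hairpin of scrambled sequence (Ctl). Each group had 2 RNA extractions, each hybridized to its own Affymetrix Mouse Gene ST array, and the values are RMA log2 expression values. The extractions came from 1 transduced population a group, so p-values reflect only how extractions varied, and that variation may be technical. PW1 was targeted by 1 hairpin alone. The methods place it in the plasmid pLV-H1 and name a control hairpin in pLKO.1, together with a hairpin against Pax3. The vector of the arrayed Ctl cells is not given. If it was pLKO.1, the vector and the loss of PW1 cannot be told apart.

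Chemokines are small secreted proteins that guide leukocytes through receptors coupled to G proteins. CXC chemokines that carry a Glu-Leu-Arg motif before their cysteines attract mainly neutrophils through Cxcr2, whereas many CC chemokines attract monocytes, eosinophils or lymphocytes. In resting tissue cells most of the inflammatory members are made at low levels, and TNF, interleukin-1 or bacterial products induce them through NF-kappaB. In injured skeletal muscle, Ccl2 and its receptor Ccr2 are known for bringing in monocytes.

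Peg3, the imprinted gene that encodes PW1, had log2 values of 6.22 and 6.47 in shPW1 AdmMABs, against 8.67 and 8.70 in Ctl AdmMABs. It fell by 2.34 on the log2 scale (standard error (SE) 0.10, limma adjusted p = 0.00428). Of 21789 probe sets with 1 gene symbol, limma called 1075 higher, or 4.93%, and 908 lower, or 4.17%, in shPW1 AdmMABs at a Benjamini-Hochberg adjusted p under 0.05. The median log2 value of an array was 5.44 and 5.40 in shPW1 AdmMABs and 5.47 and 5.49 in Ctl AdmMABs. In fits that left out any 1 of the 4 arrays, with 1 residual degree of freedom left, 0 probe sets were called in either direction, so every call below rests on all 4. The arrays gave no detection call, and whether a dim probe set lay above background was not tested.

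Of the 10 chemokines, 4 were called higher (Cxcl5, Cxcl1, Ccl2 and Ccl7) and 0 were called lower. The background of higher calls was 4.93%, from which nothing is read, since the genes were chosen on this contrast. The arrays of the groups did not overlap for 7 of the 10 genes, 5 higher and 2 lower, whereas they did not overlap for 55.5% of all probe sets tested. The median log2 fold change over the 10 was 0.18 (0.27 without shPW1 replicate 1), against -0.0095 over all probe sets tested. For the same reason nothing is read from that difference either. The set was thus split: 4 genes had log2 fold changes of 1.71 to 2.86, and the other 6 lay between -0.17 and 0.33.

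**Figure D1:**
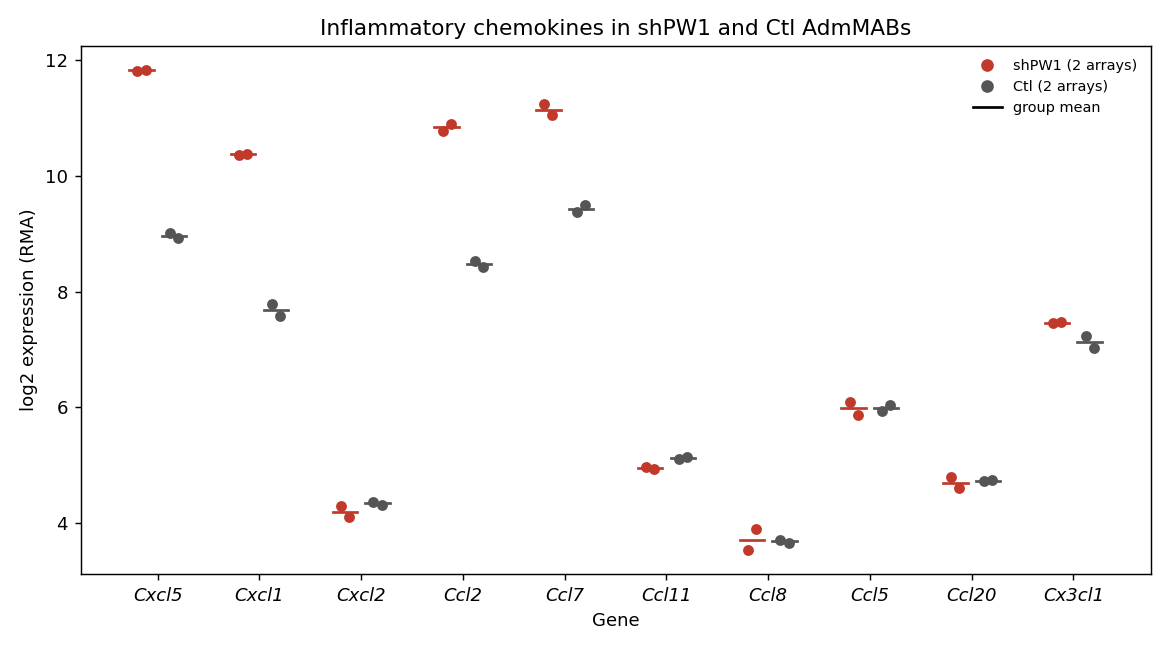
RMA log2 expression (vertical axis) of the 10 chemokines (horizontal axis) on each array, with shPW1 on the left in red and Ctl on the right in grey, 2 arrays each; points are arrays and horizontal lines are group means. Cxcl5, Cxcl1, Ccl2 and Ccl7 have gaps of 1.55 to 2.81 log2 units between the nearest arrays of the groups, and the other 6 genes lie close together; heights of different genes come from different probes and are not comparable.

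The neutrophil attractants held both the largest fold change of the set and a gene that hardly moved. Cxcl5, known as LIX, a Cxcr2 ligand made largely by epithelial and stromal cells, had log2 values of 11.82 and 11.83 in shPW1 AdmMABs, against 9.01 and 8.93 in Ctl AdmMABs. The gap between the nearest arrays of the groups was 2.81, whereas the replicates differed by 0.014 in shPW1 and 0.075 in Ctl. Its log2 fold change was 2.86 (SE 0.06), which is 7.25-fold, and only 2 of the 21789 probe sets had a larger one.

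Cxcl1, known as KC, a Cxcr2 ligand and an early signal for neutrophils, had log2 values of 10.36 and 10.38 in shPW1 AdmMABs, against 7.78 and 7.58 in Ctl AdmMABs. Every shPW1 array was above every Ctl array, and the nearest were 2.59 apart. The log2 fold change of Cxcl1 was 2.69 (SE 0.09), which is 6.47-fold and the 4th largest of all probe sets tested. Cxcl2, known as MIP-2, is a Cxcr2 ligand closely related to Cxcl1. Its log2 values were 4.29 and 4.09 in shPW1 AdmMABs, against 4.36 and 4.32 in Ctl AdmMABs. Both group means lay below the median of all rows, and the shPW1 arrays were the lower ones by a gap of only 0.022. The difference between the groups was -0.15 on the log2 scale (SE 0.09), smaller than the 0.20 between the shPW1 replicates.

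Cxcl1 and Cxcl2 are neighbours on mouse chromosome 5, and their promoters are shown because the genes differ in these cells although the windows share the same stretch of bases. RefSeq sequences (GRCm38.p6) from 250 bases before to 50 after the annotated start were available for 5 of the 10 genes, Cxcl1, Cxcl2, Ccl8, Ccl20 and Cx3cl1. Capitals mark exact matches to the NF-kappaB consensus, a motif of 10 bases, on either strand. In Cxcl1 and Cxcl2 a match on the plus strand and one on the minus strand overlap, shifted by 1 base. The windows are chr5:90890995-90891294 and chr5:90903649-90903948, both on the plus strand.
Cxcl1: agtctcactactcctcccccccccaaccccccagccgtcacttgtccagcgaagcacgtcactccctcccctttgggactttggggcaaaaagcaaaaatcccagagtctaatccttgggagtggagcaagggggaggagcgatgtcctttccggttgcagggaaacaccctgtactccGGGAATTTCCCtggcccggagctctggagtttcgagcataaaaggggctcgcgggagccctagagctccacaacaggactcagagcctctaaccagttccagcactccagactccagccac
Cxcl2: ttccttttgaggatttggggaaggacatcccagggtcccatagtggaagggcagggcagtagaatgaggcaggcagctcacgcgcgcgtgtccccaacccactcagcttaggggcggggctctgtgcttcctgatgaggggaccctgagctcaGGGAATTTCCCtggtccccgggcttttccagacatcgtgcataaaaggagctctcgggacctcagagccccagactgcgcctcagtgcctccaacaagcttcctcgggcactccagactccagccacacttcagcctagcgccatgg
In Cxcl1 (log2 fold change 2.69) the match begins 71 bases before the start, and in Cxcl2 (-0.15) the same bases begin 97 before it.

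The promoters of 2 further ligands of chromosome 5 are given for comparison. Cxcl3, another Cxcr2 ligand of the same cluster (chr5:90785851-90786150, plus strand), holds the same bases from 73 before its start. Cxcl10, a Cxcr3 ligand induced by interferon (chr5:92348840-92349139, minus strand), holds 2 NF-kappaB matches, from 159 and 103 bases before the start, and an AP-1 match (TGANTCA) from 74 before it, all in capitals.
Cxcl3: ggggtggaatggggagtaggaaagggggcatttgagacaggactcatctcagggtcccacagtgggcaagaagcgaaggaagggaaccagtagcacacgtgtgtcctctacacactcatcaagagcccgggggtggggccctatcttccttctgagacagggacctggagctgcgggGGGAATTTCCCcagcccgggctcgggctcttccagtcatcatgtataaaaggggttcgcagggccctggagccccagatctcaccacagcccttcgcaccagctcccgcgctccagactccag
Cxcl10: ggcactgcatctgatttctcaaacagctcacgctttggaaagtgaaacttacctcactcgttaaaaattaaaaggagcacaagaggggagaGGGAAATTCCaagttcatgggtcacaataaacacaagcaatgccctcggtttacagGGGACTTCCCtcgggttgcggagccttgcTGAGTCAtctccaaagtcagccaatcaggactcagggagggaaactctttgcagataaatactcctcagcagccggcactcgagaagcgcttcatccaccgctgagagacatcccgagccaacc
Cxcl3 had log2 values of 4.56 and 4.62 in shPW1 AdmMABs, against 4.59 and 4.50 in Ctl AdmMABs, and its groups overlapped. Cxcl10 had 5.19 and 5.31 in shPW1 AdmMABs, against 4.47 and 4.41 in Ctl AdmMABs. Its log2 fold change of 0.81 (SE 0.07) passed the test (limma adjusted p = 0.0117). The NF-kappaB consensus was found in 4.51% of 32851 promoters of the same length, and AP-1, TGANTCA, in 7.81%. Of the 25 ligands of the set and its relatives with a promoter, 6, or 24%, held the first (Cxcl1, Cxcl2, Ccl20, Cxcl3, Cxcl10 and Ccl9), and 5, or 20%, held the second (Ccl9, Cxcl10, Cxcl9, Ppbp and Ccl28). Of the 6, 3 were called higher and 3 were not, and of the 5 with AP-1, 3 were also called higher. The share of higher calls over all probe sets was 4.93%. Cxcl1 was chosen on this contrast, so nothing is read from these counts. The motif AGTNNCNNNTGGCT, known for PW1, was found in 0.484% of all promoters and in 0 of these 25. At so low a share 0 of 25 tells little, and Cxcl5, Ccl2 and Ccl7 had no promoter to search. A match is a description of letters in a window, and binding was not measured here.

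**Figure D2:**
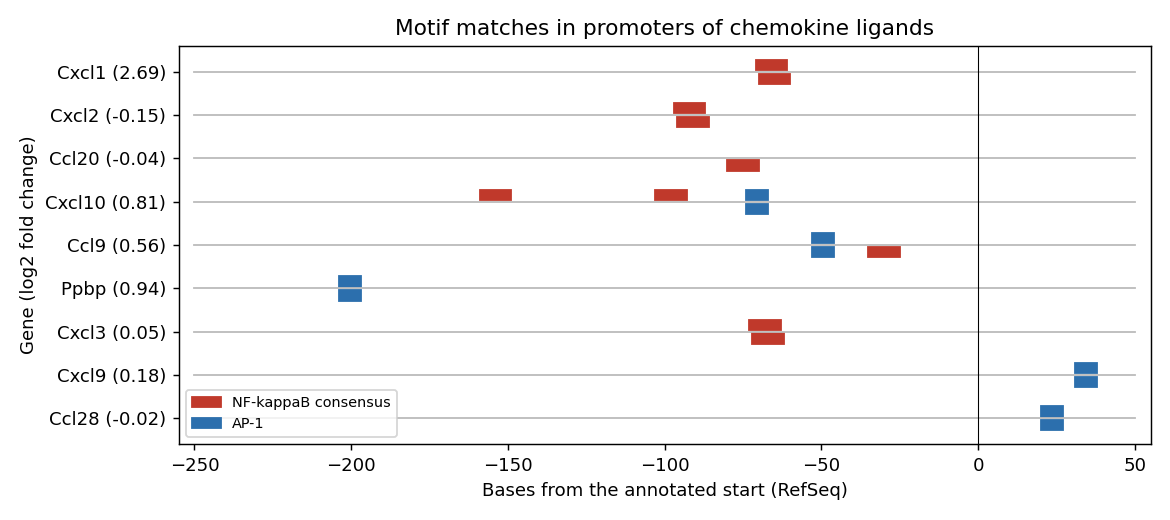
Places of NF-kappaB consensus (red) and AP-1 (blue) matches, in bases from the annotated start (horizontal axis), in the promoters of 9 chemokine ligands (vertical axis, log2 fold change of shPW1 over Ctl in brackets); boxes above a line are on the gene's strand and boxes below it on the other. Cxcl1, Cxcl2 and Cxcl3 hold the same overlapping pair of NF-kappaB matches at 71, 97 and 73 bases before the start, with log2 fold changes of 2.69, -0.15 and 0.05.

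Among the CC chemokines, the monocyte attractants Ccl2 and Ccl7 were far higher in shPW1 AdmMABs. Ccl2, known as MCP-1, the main ligand of Ccr2 on monocytes, had log2 values of 10.77 and 10.91 in shPW1 AdmMABs, against 8.53 and 8.43 in Ctl AdmMABs. The groups were 2.24 apart at their nearest arrays, with a log2 fold change of 2.36 (SE 0.08), or 5.12-fold, the 5th largest of all probe sets tested. Ccl7, known as MCP-3, which binds Ccr2 and also Ccr1 and Ccr3, had log2 values of 11.24 and 11.05 in shPW1 AdmMABs, against 9.37 and 9.51 in Ctl AdmMABs. It was 3.27-fold higher, a log2 fold change of 1.71 (SE 0.09) and rank 15, with no overlap between groups. Replicates of Ccl7 differed by 0.19 in shPW1 and 0.14 in Ctl.

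The CC chemokines that attract eosinophils, T cells or further monocytes showed no such difference. Ccl11, known as eotaxin, a Ccr3 ligand that attracts eosinophils, had log2 values of 4.96 and 4.94 in shPW1 AdmMABs, against 5.10 and 5.14 in Ctl AdmMABs. Both shPW1 arrays were lower, by a log2 fold change of -0.17 (SE 0.06). Ccl8, known as MCP-2, had log2 values of 3.53 and 3.90 in shPW1 AdmMABs, against 3.71 and 3.66 in Ctl AdmMABs, so that the shPW1 arrays lay on both sides of the Ctl arrays. Its replicates differed by 0.37 in shPW1, the widest spread in the set, and its log2 fold change was 0.03 (SE 0.13). Ccl5, known as RANTES, a T cell and monocyte attractant, had log2 values of 6.10 and 5.87 in shPW1 AdmMABs, against 5.93 and 6.03 in Ctl AdmMABs. The groups of Ccl5 overlapped, with a log2 fold change of 0.00295 (SE 0.10). Ccl20, the ligand of Ccr6, had log2 values of 4.79 and 4.60 in shPW1 AdmMABs, against 4.73 and 4.74 in Ctl AdmMABs. Here, too, the shPW1 arrays lay above and below the Ctl arrays, at a log2 fold change of -0.04 (SE 0.08). For Ccl11, Ccl8 and Ccl20, as for Cxcl2, both group means lay under the median of all rows.

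Cx3cl1, fractalkine, is anchored in the membrane, is shed by ADAM proteases and binds Cx3cr1. Its log2 values were 7.45 and 7.47 in shPW1 AdmMABs, against 7.23 and 7.03 in Ctl AdmMABs. The shPW1 arrays were both higher by at least 0.22, and the log2 fold change was 0.33 (SE 0.09), or 1.26-fold, rank 1348 of 21789.

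**Figure D3:**
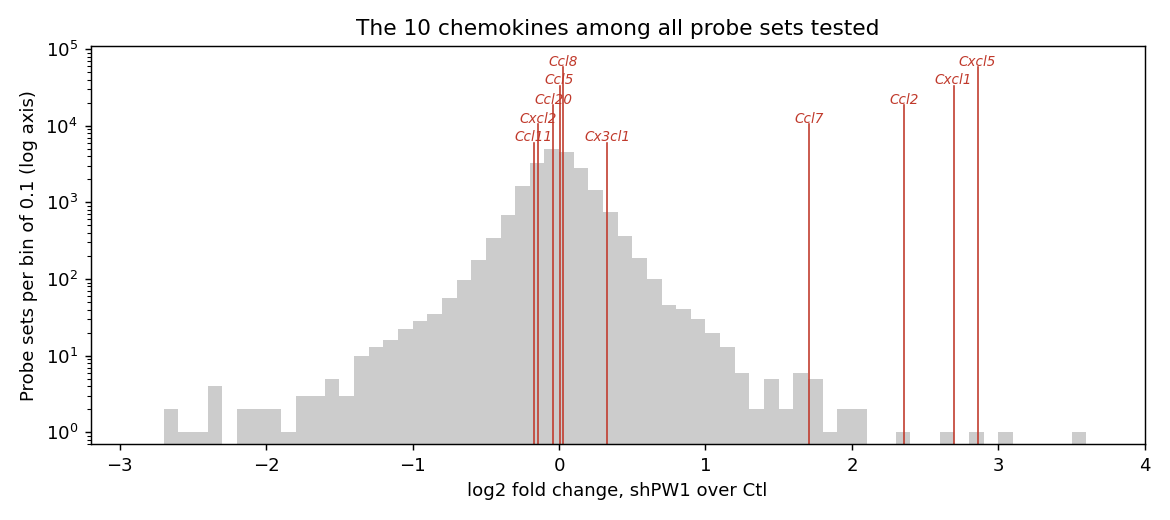
Number of probe sets per bin of 0.1 (vertical axis, log scale) by log2 fold change of shPW1 over Ctl (horizontal axis) for all 21789 probe sets tested, with the 10 chemokines as red lines. Cxcl5, Cxcl1, Ccl2 and Ccl7 lie in the thin right tail at 1.71 to 2.86, and the other 6 lie between -0.17 and 0.33.

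Likeness between genes was taken as the root mean square difference over the 4 arrays of log2 values, each minus its own mean. It was 0.0925 for Cxcl1 and Cxcl5, 0.18 for Cxcl1 and Ccl2, 0.35 for Ccl2 and Ccl7, 0.51 for Cxcl1 and Ccl7 and 0.58 for Cxcl5 and Ccl7, against 1.42 for Cxcl1 and Cxcl2. Among the other 6 genes it ran from 0.041 for Ccl5 and Ccl20 to 0.26 for Ccl11 and Cx3cl1. Outside the set, the genes most like Ccl2 were Il6, a cytokine of the acute response (0.17), Cfap69 (0.17), Tigit (0.22), Serpinb2, an inhibitor of plasminogen activators (0.27), and Gpr176 (0.29), with log2 fold changes of 1.78 to 2.04. Those most like Cxcl1 were Tmem176b (0.21), Il6 (0.34), Cfap69 (0.35), Tigit (0.37) and U90926 (0.42). With 4 arrays in 2 groups, likeness mostly restates the size of the fold change.

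Large and small differences lay side by side in the chemokine gene clusters. In the CXC cluster of chromosome 5 the order of the measured ligands was Cxcl5, Ppbp, Pf4, Cxcl3, Cxcl15, Cxcl1 and Cxcl2, followed by Cxcl9, Cxcl10, Cxcl11 and Cxcl13. Of these 11 genes, 4 were called higher (Cxcl5, Ppbp, Cxcl1 and Cxcl10) and 0 lower, beside 4.93% and 4.17% of all probe sets. Cxcl5 and Cxcl1 were chosen on this contrast, so nothing is read from the count. Ppbp, the precursor of the Cxcr2 ligand NAP-2, stands next to Cxcl5 and had log2 values of 7.16 and 7.30 in shPW1 AdmMABs, against 6.24 and 6.35 in Ctl AdmMABs. Ppbp rose by 0.94 on the log2 scale (SE 0.08, limma adjusted p = 0.0113). Pf4, platelet factor 4, and Cxcl15, lungkine, which lie between Cxcl5 and Cxcl1, had log2 fold changes of 0.03 (SE 0.08) and -0.04 (SE 0.12) and did not pass the test.

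In the CC clusters of chromosome 11 the measured ligands were, in order, Ccl2, Ccl7, Ccl11, Ccl12, Ccl8, Ccl1, Ccl5, Ccl9, Ccl6, Ccl3 and Ccl4. Of these 11 genes, 3 were called higher (Ccl2, Ccl7 and Ccl9) and 0 lower, beside 4.93% and 4.17% of all probe sets. Nothing is read from this count either, since Ccl2 and Ccl7 were chosen on this contrast. Ccl2 and Ccl7 are at one end of the cluster, and their neighbour Ccl11 had the lowest fold change in the set. Ccl12, known as MCP-5, another Ccr2 ligand of the mouse, had log2 values of 3.79 and 4.09 in shPW1 AdmMABs, against 3.69 and 4.10 in Ctl AdmMABs, and the groups overlapped. Ccl9, a Ccr1 ligand that attracts myeloid cells, had log2 values of 6.67 and 6.70 in shPW1 AdmMABs, against 6.24 and 6.01 in Ctl AdmMABs. It rose by 0.56 on the log2 scale (SE 0.09, limma adjusted p = 0.0354).

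**Figure D4:**
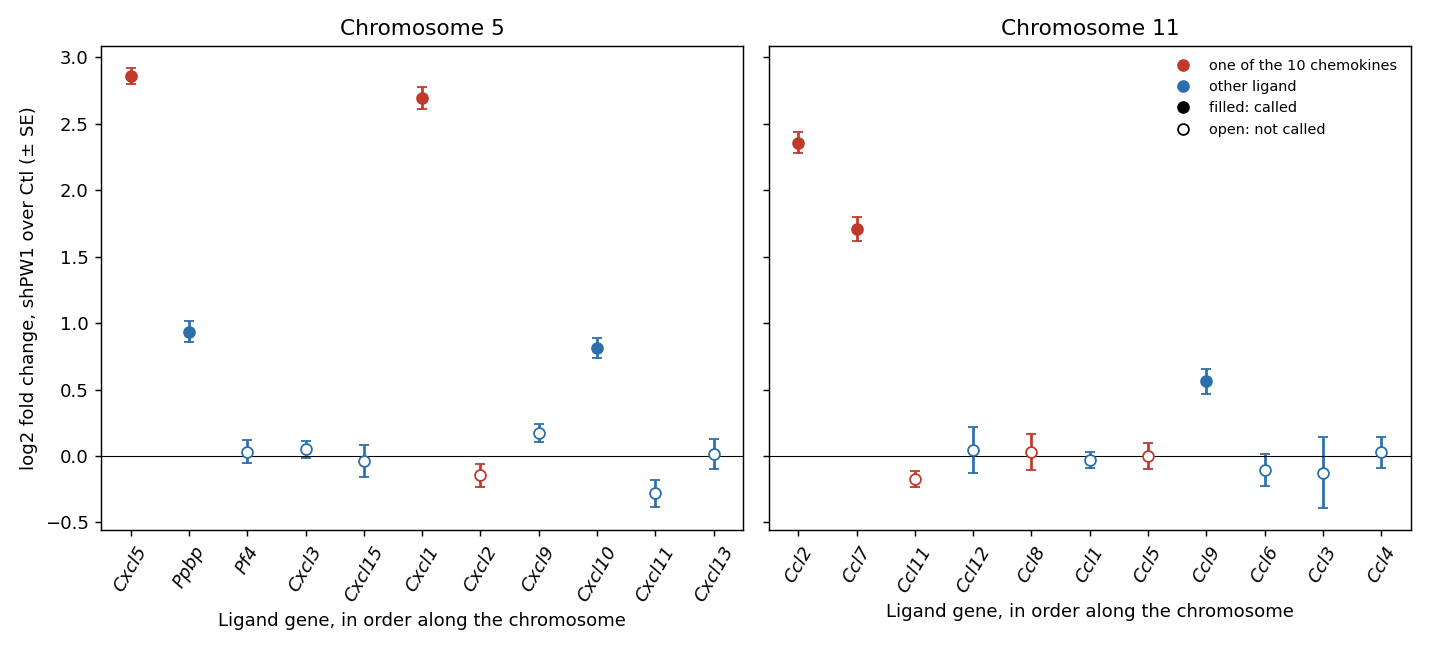
Fold change of shPW1 against Ctl on the log2 scale (vertical axis, error bars are the SE, n = 2 arrays a group) of the ligands of the CXC cluster of chromosome 5 and the CC clusters of chromosome 11 in their order along the chromosome (horizontal axis, not to scale); red marks the 10 chemokines, blue other ligands, filled symbols those called. Cxcl5 and Cxcl1, and Ccl2 and Ccl7, stand above 1.7, while neighbours such as Cxcl2 (-0.15) and Ccl11 (-0.17) lie near 0.

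In all, 26 chemokine ligands outside the set were measured, with a median log2 fold change of -0.02. Of these, 3 were called higher (Ppbp, Cxcl10 and Ccl9), 1 lower and 22 neither, beside 4.93% higher and 4.17% lower of all probe sets. The gene called lower was Cxcl12, known as SDF-1, the homeostatic ligand of Cxcr4 that retains progenitors in bone marrow. Cxcl12 had log2 values of 8.93 and 9.06 in shPW1 AdmMABs, against 9.54 and 9.51 in Ctl AdmMABs, a log2 fold change of -0.53 (SE 0.07, limma adjusted p = 0.0237).

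The receptors of the 10 chemokines that were analysed did not pass the test. Of the 8 analysed, 0 were called by limma, 2 were higher at an unadjusted p under 0.05, and 0 passed the thresholds of the methods. Of all probe sets, limma called 4.93% higher and 4.17% lower, so 0 of 8 tells little. Cxcr2, the receptor of Cxcl1, Cxcl2 and Cxcl5, had log2 values of 3.51 and 3.51 in shPW1 AdmMABs, against 3.37 and 3.15 in Ctl AdmMABs. For Ccr2, the receptor of Ccl2 and Ccl7, they were 3.29 and 3.28 in shPW1 AdmMABs, against 3.07 and 3.09 in Ctl AdmMABs. The log2 fold changes were 0.25 for Cxcr2 and 0.20 for Ccr2, both low on the scale of the array. The other 6 receptors, Cxcr1, Ccr1, Ccr3, Ccr6, Ccr8 and Cx3cr1, lay between -0.10 and 0.15, and the signs of Cxcr1, Ccr1, Ccr6 and Cx3cr1 changed with single arrays left out.

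Among 5 atypical receptors, which take up or present chemokines without classical signalling, 1 was called higher, beside 4.93% of all probe sets. Ackr3, a scavenger of Cxcl12, had log2 values of 6.08 and 6.01 in shPW1 AdmMABs, against 5.60 and 5.45 in Ctl AdmMABs, and rose by 0.52 on the log2 scale (limma adjusted p = 0.0283). Of 10 further chemokine receptors, 0 were called higher and 2 lower, beside 4.93% and 4.17% of all probe sets. Cxcr4, the signalling receptor of Cxcl12, had 7.42 and 7.39 in shPW1 AdmMABs, against 8.15 and 8.18 in Ctl AdmMABs (log2 fold change -0.76, limma adjusted p = 0.00853). Cxcr6, the receptor of Cxcl16, had a log2 fold change of -0.71 (limma adjusted p = 0.0173).

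Of 33 cytokines, receptors, adaptors and inhibitors in pathways that induce the chemokines, 2 were called higher, 2 lower and 29 neither. These counts stand beside 4.93% and 4.17% of all probe sets, and the median log2 fold change was 0.00022. Il1rap, the shared subunit of interleukin-1 and interleukin-33 receptors, rose by 0.83 on the log2 scale (limma adjusted p = 0.0199). Ifngr2, a subunit of the interferon-gamma receptor, rose by 0.56 (limma adjusted p = 0.0181). Il17rd and Tnfrsf1a, the main receptor of TNF, fell by 0.57 and 0.38 on the log2 scale (limma adjusted p = 0.0236 and 0.0348).

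Of 21 genes that control the stability or translation of chemokine mRNAs, or that are induced with them, 5 were called higher and 0 lower, beside 4.93% and 4.17% of all probe sets, with a median log2 fold change of 0.15. This list, like the others, was chosen with earlier results of these data known, so nothing is read from the count. Zc3h12a, which encodes Regnase-1, an RNase that degrades inflammatory mRNAs, had log2 values of 7.97 and 8.03 in shPW1 AdmMABs, against 6.42 and 6.44 in Ctl AdmMABs (log2 fold change 1.57, SE 0.06, limma adjusted p = 0.00383). Nfkbiz, an atypical I-kappaB protein that acts in the nucleus, had 8.79 and 8.79 in shPW1 AdmMABs, against 7.23 and 7.04 in Ctl AdmMABs (log2 fold change 1.65, SE 0.08, limma adjusted p = 0.00504). Tnfaip3, which encodes A20, an inhibitor of NF-kappaB signalling, and Zc3h12c, a relative of Zc3h12a, rose by 1.03 and 0.69 on the log2 scale (limma adjusted p = 0.0122 and 0.0236).

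Of 40 proteases, heparan sulfate proteoglycans and enzymes that shed, cleave or bind chemokines, 2 were called higher, 6 lower and 32 neither. The shares over all probe sets were 4.93% higher and 4.17% lower. Sulf1, an endosulfatase that trims heparan sulfate, had log2 values of 5.46 and 5.65 in shPW1 AdmMABs, against 6.90 and 6.66 in Ctl AdmMABs (log2 fold change -1.23, limma adjusted p = 0.0125). Anpep, aminopeptidase N, which trims the amino end of peptides, had a log2 fold change of -1.06 (limma adjusted p = 0.00576). Hpse, heparanase, fell by 0.45 on the log2 scale, and Extl3, an enzyme of heparan sulfate synthesis, rose by 0.43 (limma adjusted p = 0.0396 and 0.0248).

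**Figure D5:**
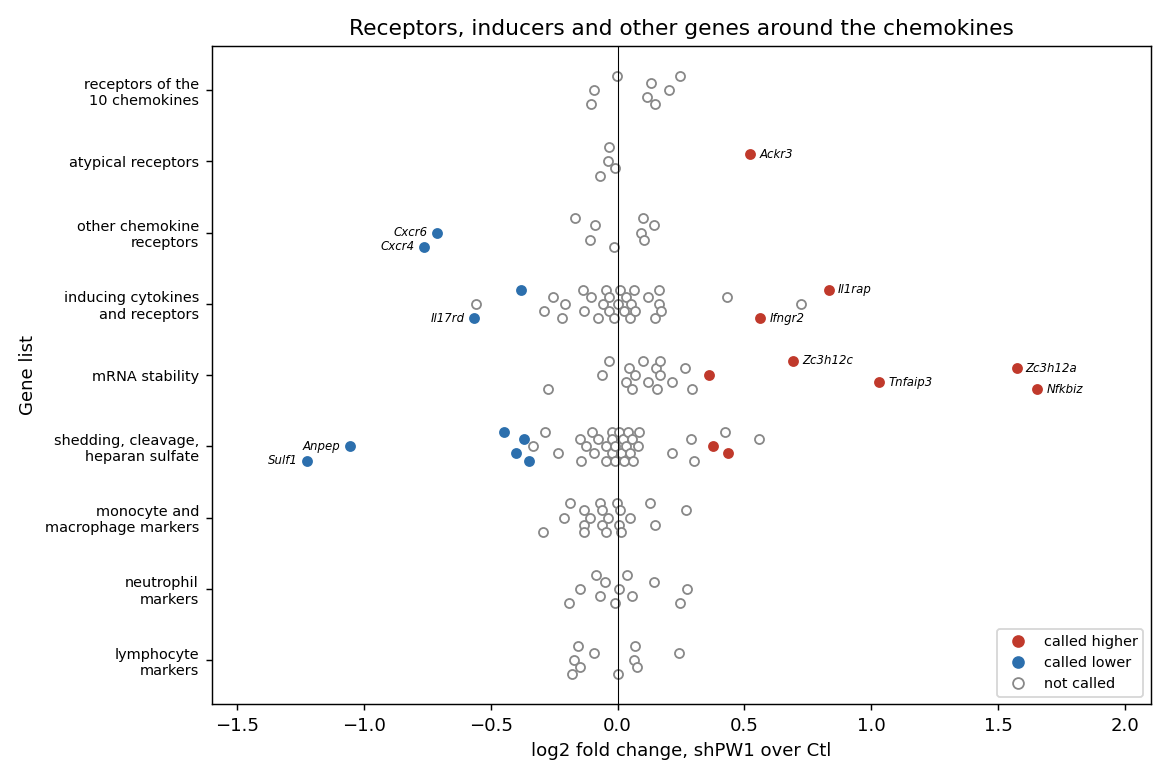
Log2 fold change of shPW1 over Ctl (horizontal axis) for every measured gene of 9 lists around the chemokines (vertical axis; points are shifted up and down only for legibility), in red where called higher, blue where called lower and open where not called; called genes past 0.5 in size are named. The receptors of the 10 chemokines and the 3 leukocyte lists hold no called gene. The mRNA stability list, which includes genes induced with the chemokines, holds 5 called higher, beside 4.93% of all probe sets. All lists were chosen with earlier results of these data known.

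Leukocytes also make several of these chemokines, so their markers are given beside the 4 genes. None of 42 measured markers of monocytes and macrophages, neutrophils or lymphocytes was called by limma. Of all probe sets, 4.93% were called higher and 4.17% lower. At an unadjusted p under 0.05, 1 marker was higher and 3 were lower, and 0 were higher past the thresholds of the methods. The share of all probe sets at that unadjusted p is not given here. The part of leukocytes in the chemokine values was not tested. Summed on a linear scale, the 20 monocyte and macrophage markers came to 591 and 545 in shPW1 AdmMABs and 565 and 604 in Ctl AdmMABs. The 12 neutrophil markers summed to 230.1 and 227 in shPW1 AdmMABs and to 225 and 231 in Ctl AdmMABs, and the 10 lymphocyte markers to 239 and 223 in shPW1 AdmMABs and to 236 and 244 in Ctl AdmMABs. No marker of the 3 lists had a log2 value over 6.58 on any array. An array gives no value of 0, so which of them were absent cannot be read from it. In bulk RNA, fewer cells that express a gene and less of its RNA in each cell cannot be told apart. Of 16 markers of pericytes and mesoangioblasts, 1 was called higher (Cd44) and 6 lower, beside 4.93% and 4.17% of all probe sets. The 6 include Peg3, the target of the hairpin. Cspg4, which encodes NG2, Des, desmin, and Pdgfrb, the PDGF receptor of pericytes, fell by 0.66, 0.55 and 0.45 on the log2 scale (limma adjusted p = 0.0174, 0.0174 and 0.0225). The part of these markers in the chemokine values was not tested. Calls of Cd44, Cspg4, Des and Pdgfrb were not followed through the alternatives described below.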

How the data were processed

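RNA of 2 shPW1 and 2 Ctl extractions was hybridized to Affymetrix Mouse Gene ST arrays. RMA was run by the authors in Partek (6.4 by the submitters' processing notes), and the deposited values are log2 expression values, so background correction and summarization are theirs. Of 35556 rows, 21789 carried exactly 1 gene symbol in the platform annotation and were tested (21698 matched the RefSeq gene table); 1621 rows naming several genes and 12146 naming none were not used. Where a gene had several probe sets, the brightest by mean stood for it.

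Groups were compared in R 4.3.3 with limma 3.58.1 (lmFit, eBayes; 2 residual and 2.72 prior degrees of freedom), two-sided, with Benjamini-Hochberg adjustment over all rows tested, and called at an adjusted p under 0.05. The 10 chemokines and all gene lists were chosen with earlier results of these data known. Besides the 10, the text names Peg3, their receptors, ligands of the same clusters, up to 4 called genes of each other list by size of change, and for Cxcl1 and Ccl2 the 5 genes most alike over the 4 arrays. Cd44 was named after its values were seen. The number of arrays limits the precision.

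Alternatives were a filter on dim probe sets, the test over all rows, repeated quantile normalization, array medians subtracted, limma's trended robust prior, the methods' analysis of variance (p under 0.05 with a fold change over 1.2, or adjusted), a block for the replicate number and leave-one-out fits.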

Additional observations from a re-analysis of the deposited data

How the results depend on the processing

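The 10 chemokines were chosen on this contrast, so their calls here describe only how the processing moved them. All 4 chemokines called higher (Cxcl5, Cxcl1, Ccl2 and Ccl7) were so in every alternative that used all 4 arrays except the adjusted analysis of variance, which called 0 of the 10. Their log2 fold changes stayed within 2.82 to 2.92, 2.60 to 2.79, 2.29 to 2.43 and 1.61 to 1.80 over the alternatives, leaving out arrays included. The number of the 10 called was 5 without dim probe sets and with a trended robust prior, where Cx3cl1 was added. Without dim probe sets, Cxcl2, Ccl8, Ccl11 and Ccl20 were not tested. Outside the set, Cxcl10 and Cxcr6, both called in the reported fit, were also dim and were not tested there. The median over the 10, 0.18 as reported, was 0.27 without shPW1 replicate 1 and lay between 0.14 and 0.27 over the alternatives.

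The number of calls moved more. Higher and lower calls were 2240 and 1784 without dim probe sets, 36 and 50 with all rows tested, 2735 and 1978 with a trended robust prior, 1 and 1 with the adjusted analysis of variance, and 0 and 0 with any array left out. Subtracting array medians gave 1627 higher and 759 lower calls, so that 68.2% of calls were higher, against 54.2% in the reported fit, and shifted the median of all probe sets to 0.05. With any array left out, 0 of the 10 chemokines and 0 other ligands were called; 1 residual degree of freedom is then left. Of the other ligands, 0 were called with all rows, 0 by the adjusted analysis of variance and 2 with the replicate block, against 4 in the reported fit. Of the 20 called genes outside the set that were followed through the alternatives, 16 lost their call with all rows, 20 with the adjusted analysis of variance or any array left out, and 8 with the replicate block.

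The arrays share only a replicate number, and deviations of same-numbered arrays correlated at -0.11. With the replicate number as a block, 256 probe sets were called higher and 258 lower. A crossed pairing, added after seeing the data, gave 213 and 224 calls.

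Of the 10 chemokines, Ccl5 (-0.11 to 0.12), Ccl8 (-0.16 to 0.21) and Ccl20 (-0.13 to 0.05) took both signs over the alternatives. Of the genes followed outside the set, those whose sign changed were receptors that were not called. Cx3cr1 was 0.044 after quantile normalization, 0.056 after median subtraction and between -0.11 and 0.10 with an array left out. In the same way Cxcr1 ranged between -0.012 and 0.30, Ccr1 between -0.077 and 0.31 and Ccr6 between -0.038 and 0.30. The causes of these shifts were not tested.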
